A study of Mus musculus with 17 samples.

Results

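H3.3 occupancy was examined at the 9 genes that encode the histone variant H3.3 and the chaperones that load it: H3f3a, H3f3b, Hira, Ubn1, Ubn2, Cabin1, Daxx, Asf1a and Asf1b. They were chosen by name, from 21938 protein-coding genes of GENCODE M21, and all 9 lie on autosomes. For each gene, every H3.3 peak within 1 kb of one of its transcript starts, or inside the gene, was taken from the peak list of each genotype. The peaks came from CUT&RUN, in which an antibody brings a nuclease to its target in permeabilised cells and the released DNA is sequenced.

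The cells were pachytene spermatocytes, the germ cells in mid meiotic prophase, purified by sedimentation through a density gradient (Sta-Put) from testes of adult CD1 mice, several males pooled. Arid1a encodes a subunit of the BAF chromatin remodeler. Arid1a WT males carried a floxed Arid1a allele, on 1 or both chromosomes, and no Cre. Arid1a cKO males were Arid1a fl/fl with 1 copy of Stra8-Cre, a transgene active in spermatogonia. Excision by this Cre is incomplete, so the Arid1a cKO fraction also held cells that still made ARID1A. Of 17 libraries, 2 from Arid1a WT and 3 from Arid1a cKO were made with the H3.3 antibody, and the other 12, made with ARID1A antibodies, were not analysed here. The rabbit IgG library used as background came from an earlier study, in pachytene-enriched cells of juvenile testes.

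H3.3 differs from the replication-coupled H3 proteins in a few residues and can also be deposited outside S phase. H3f3a and H3f3b encode the same protein. The HIRA complex places H3.3 at promoters, active genes and sites of nucleosome loss, and DAXX places it with ATRX in repeats and heterochromatin. ASF1 proteins hand H3-H4 dimers to chaperones such as the HIRA complex. In pachytene spermatocytes H3.3 is known for its accumulation on the silenced X and Y chromosomes.

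Each genotype was represented by 1 list that combines its replicates, so the values below have no SD and no test of the genotype was possible. Merging the 12183 rows of the Arid1a cKO list gave 6552 regions, 6179 of them autosomal. The Arid1a WT list held 228 regions, of which 4 were autosomal. Rows carry a fold (H3.3 signal divided by IgG background, averaged over the peak) and the -log10 q of the peak. The lists do not say whether these values come from 1 library or from several. The 12183 rows of the Arid1a cKO list held 6540 peak names, so many rows repeat the name of another row. The lowest fold was 2.80 in the Arid1a cKO list and 4.85 in the Arid1a WT list, so the lists reach down to different levels. Sequencing depth is unknown. Peak positions give no expression, so the labelled cell type could not be checked against marker genes. H3.3 peaks also do not check the deletion of Arid1a, which itself had regions of fold 3.42 and 2.86 within 1 kb of a start in the Arid1a cKO list and no row in the Arid1a WT list.

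All 9 genes had an H3.3 row within 1 kb of a transcript start in the Arid1a cKO list, where 29.5% of the 20807 autosomal protein-coding genes did. None of the 9 had a row there in the Arid1a WT list, where the share over the same genes was 0%. With rows inside the gene counted too, the members stood at 9 of 9 against 30.9% in the Arid1a cKO list and at 0 of 9 against 0.00961% in the Arid1a WT list. The 0 in the Arid1a WT list is therefore the value of every autosomal coding gene at its starts and says nothing particular about these 9. It counts called peaks and does not show that H3.3 was absent. From averaged signal, the authors reported H3.3 above IgG at starts of ARID1A-regulated autosomal genes, which appeared stronger in Arid1a cKO than in Arid1a WT. The nearest Arid1a WT region lay 8.38 Mb from H3f3a and 104 Mb from Ubn2, and the chromosomes of the other members held none. Of the 9 genes, 3 had an Arid1a cKO fold at or above the lowest fold of the Arid1a WT list, and the other 6 lay below that fold. By -log10 p, 7 of the 9 were at or above the lowest value of the Arid1a WT list, and by -log10 q all 9 were, so how many members reach the floor of that list depends on the measure.

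The Arid1a cKO rows of the 9 genes numbered 21 and formed 11 regions. Of the genes, 7 had 1 region, and Cabin1 and Daxx had 2 each. The region with the highest fold overlapped a coding transcript start in 8 of 9 genes, the exception being Hira. Over all 6145 genes with a row at a start, 76.7% had a best region that covered a transcript start.

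The promoter sequences under 7 of these genes are given here because all of them lie wholly or partly inside the H3.3 regions described next, and because they show what the genes share, CG-rich starts, and where the paralogs differ. They are reference sequence of GRCm38.p6, the build that mm10 is made from, written 5′ to 3′ on the strand of the gene and outside coding-transcript exons, except the 30-base stretches of H3f3b and Asf1a, which surround the motif nearest the start. The stretches are chr1:180813633-180813783 on the minus strand for H3f3a, chr11:116024514-116024543 on the minus strand for H3f3b, chr16:5049911-5050056 on the plus strand for Ubn1, chr6:38433675-38433924 on the plus strand for Ubn2, chr17:33909195-33909413 on the plus strand for Daxx, chr10:53596922-53596951 on the plus strand for Asf1a and chr8:83955257-83955506 on the plus strand for Asf1b. Capitals mark a motif read on either strand. The letters GGGCGG stand for a GC box. CCAAT is the CCAAT box itself, and TATAAA is written for the TATA box. TGACGTCA is the cyclic AMP response element, whereas CACGTG is the E-box.
H3f3a: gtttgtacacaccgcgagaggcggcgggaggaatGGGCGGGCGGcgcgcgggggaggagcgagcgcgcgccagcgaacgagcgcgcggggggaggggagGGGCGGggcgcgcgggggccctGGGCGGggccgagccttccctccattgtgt
H3f3b: gtgcagcgtctcTATAAAtatggaggcgtc
Ubn1: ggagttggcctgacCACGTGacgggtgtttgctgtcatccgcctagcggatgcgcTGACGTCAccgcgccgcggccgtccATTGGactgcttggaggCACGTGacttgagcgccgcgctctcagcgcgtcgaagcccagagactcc
Ubn2: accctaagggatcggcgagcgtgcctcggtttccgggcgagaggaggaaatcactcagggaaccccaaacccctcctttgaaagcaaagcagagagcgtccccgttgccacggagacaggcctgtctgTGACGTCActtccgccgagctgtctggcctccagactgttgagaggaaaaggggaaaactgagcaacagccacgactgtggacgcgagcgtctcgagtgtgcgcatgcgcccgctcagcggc
Daxx: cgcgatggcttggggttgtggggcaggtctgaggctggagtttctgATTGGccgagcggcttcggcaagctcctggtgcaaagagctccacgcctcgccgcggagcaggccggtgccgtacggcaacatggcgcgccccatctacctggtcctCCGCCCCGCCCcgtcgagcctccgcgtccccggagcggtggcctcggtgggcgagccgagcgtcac
Asf1a: gagggtcagagctcgggggcagCCAATcgc
Asf1b: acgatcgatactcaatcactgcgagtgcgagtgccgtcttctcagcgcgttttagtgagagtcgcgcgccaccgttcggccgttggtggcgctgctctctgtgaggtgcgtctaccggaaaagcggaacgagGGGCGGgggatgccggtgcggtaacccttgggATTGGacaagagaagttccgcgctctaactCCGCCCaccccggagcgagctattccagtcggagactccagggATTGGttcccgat

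The 2 genes for H3.3 itself held regions of different width and position. H3f3a had the widest region of the 9, 1251 bp at chr1:180813150-180814400, with a fold of 4.15 and a -log10 q of 4.60. Its centre lay at -143 bp from the nearest coding start, and 457 bp of it lay outside the gene. It therefore spread over the GC-box stretch printed above and the start of H3f3aos, an antisense gene on the opposite strand.

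H3f3b had a region of 663 bp at chr11:116023861-116024523, with a fold of 4.45 and a -log10 q of 3.98. In contrast to H3f3a, it lay wholly inside the gene, but only because the coding transcript H3f3b-202 starts at -3458 bp from H3f3b-201. Relative to the coding start of H3f3b-201, the region ran from -19 bp to 643 bp and had its centre 312 bp downstream. It covered 155 bp of untranslated exon, 128 bp of coding sequence and 380 bp of intron. Only 10 of the 30 printed bases of H3f3b, the end nearest the start, fell in the region. Related copies elsewhere in the genome can share reads, so the uniqueness of the regions was measured with 50-base words. Such words occurred once in the genome at 98.5% of positions in the H3f3a region and at 97.1% in the H3f3b region, and at 100% in the other 9 regions.

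The HIRA complex genes differed among themselves, with folds from 3.84 in Cabin1 to 5.09 in Ubn2 and a -log10 q from 2.54 to 5.52 in the same genes. Ubn2, whose protein is the paralog of UBN1 in the complex, had a fold of 5.09 and a -log10 q of 5.52 in a 767-bp region at chr6:38433436-38434202. Ubn1, which encodes the subunit that recognises H3.3, had a fold of 4.95 and a -log10 q of 5.37 in an 893-bp region at chr16:5049442-5050334. These regions were alike in position too, with centres at -131 and -169 bp from the nearest coding start and with 514 and 615 bp outside the gene. The printed stretches of both paralogs lay wholly inside their regions.

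Hira, the gene of the scaffold subunit, had a fold of 3.95 and a -log10 q of 3.58 in a 431-bp region at chr16:18876523-18876953. This was the only member region of highest fold that missed every start GENCODE annotates for its gene. It ended at -84 bp from the nearest coding start, and all 431 bp lay outside the GENCODE gene, although a curated RefSeq start of Hira fell inside. The start of Mrpl40, a mitochondrial ribosomal protein gene on the opposite strand, lay inside it.

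Cabin1, which encodes a further subunit of the complex, had the narrowest region of highest fold of the 9. It measured 246 bp at chr10:75764106-75764351 and had a fold of 3.84 and a -log10 q of 2.54. A second Cabin1 region, 357 bp at chr10:75667840-75668196, had a fold of 3.02. It lay in an intron of the coding transcripts and covered the start of a non-coding transcript of the gene, 47626 bp downstream of the nearest coding start.

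Daxx, the gene of the other H3.3-specific chaperone, had the highest fold of the 9. Its region of 521 bp at chr17:33909197-33909717 had a fold of 5.81 and a -log10 q of 5.45, and its centre lay 12 bp from the coding start. It covered 304 bp of untranslated exon and 217 bp upstream, and the start of BC051226, a lncRNA on the opposite strand, lay within it. A second region, 312 bp at chr17:33911716-33912027 with a fold of 3.59 and a -log10 q of 2.67, lay wholly in coding exon sequence. It was the only member region that rested on 1 row, the other 10 having 2.

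The ASF1 paralogs had the lowest folds of the 9. Asf1a, whose protein passes H3-H4 to HIRA, had a fold of 3.37 and a -log10 q of 2.96 in an 828-bp region at chr10:53596820-53597647. Asf1b, the paralog most used in dividing cells, had a fold of 3.04 and a -log10 q of 2.37 in a 341-bp region at chr8:83955372-83955712. The Asf1a region was wider and reached further into its gene, over 109 bp of coding sequence and 460 bp of intron, whereas the Asf1b region covered 206 bp of untranslated exon and 135 bp upstream. The start of Mcm9, a helicase gene on the opposite strand, lay in the Asf1a region.

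**Figure D1:**
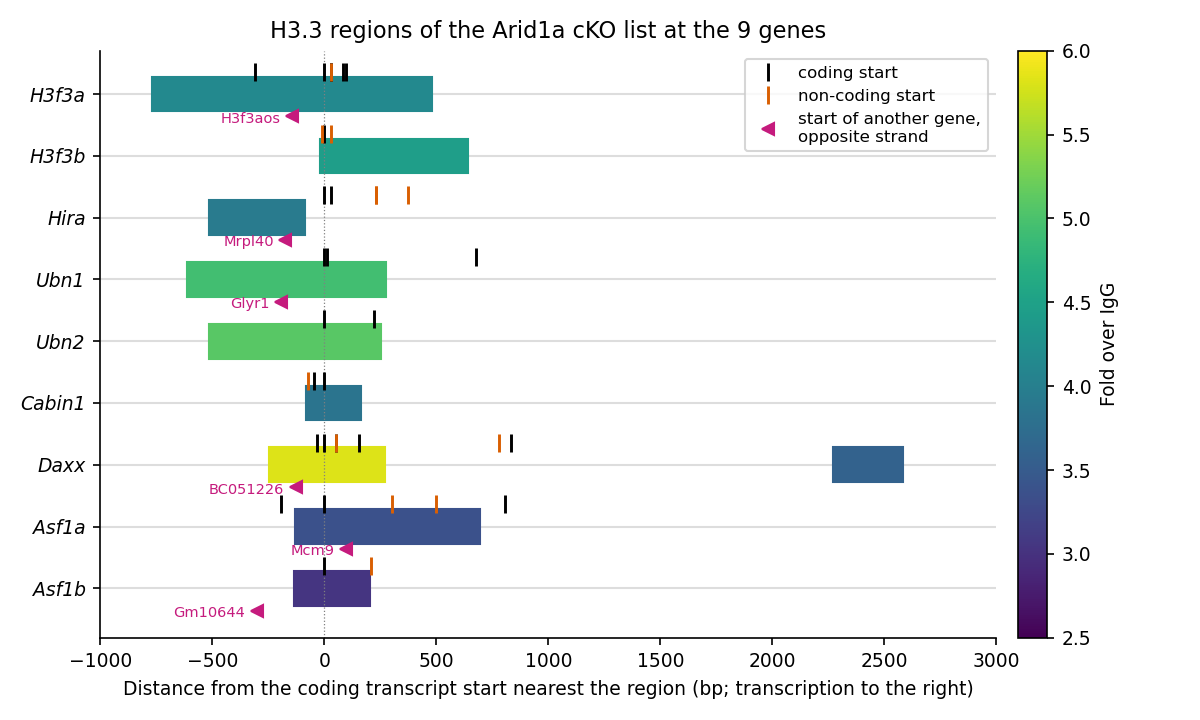
H3.3 regions of the Arid1a cKO list at the 9 genes, drawn against the distance in bp from the coding transcript start nearest the region of highest fold, with transcription to the right and colour giving the fold over IgG. Ticks are transcript starts of the gene and triangles are starts of other genes on the opposite strand; the Hira region ends before the GENCODE gene begins, the other regions of highest fold cover a start, and the second Cabin1 region lies outside the axis.

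From highest to lowest, the folds ran Daxx, Ubn2, Ubn1, H3f3b, H3f3a, Hira, Cabin1, Asf1a and Asf1b, from 5.81 to 3.04. Without a spread between replicates it cannot be said which neighbours in this order differ. By -log10 p the order changed, with Ubn2 first at 8.98, Daxx next at 8.94, and Asf1b last at 5.56. Cabin1, seventh by fold, stood just above Asf1b at 5.57.

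Within the Arid1a cKO list the 9 genes were spread through the range of fold. By fold, the Daxx row ranked 1342 of 12183, in the top 11.0%, and the Asf1b row ranked 10448, in the top 85.8%. Between them Ubn2 ranked 2486, Ubn1 2807, H3f3b 4191, H3f3a 5383, Hira 6269, Cabin1 6708 and Asf1a 9108. Ranked by -log10 p instead, Ubn2 stood at 2890, Daxx at 2927, Cabin1 at 9686 and Asf1b at 9710. The median fold of the 9 was 4.15, and the median over all 6145 genes with a row at a start was 4.12, with quartiles of 3.48 and 5.01. The median -log10 q was 3.98 for the 9 and 3.92 for all such genes, with quartiles of 2.82 and 5.69 over the latter. The highest -log10 q of the 9, 5.52 in Ubn2, lay below that upper quartile. The regions of the members were wider, with a median of 663 bp against 450 bp and 6 of 9 above that value.

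**Figure D2:**
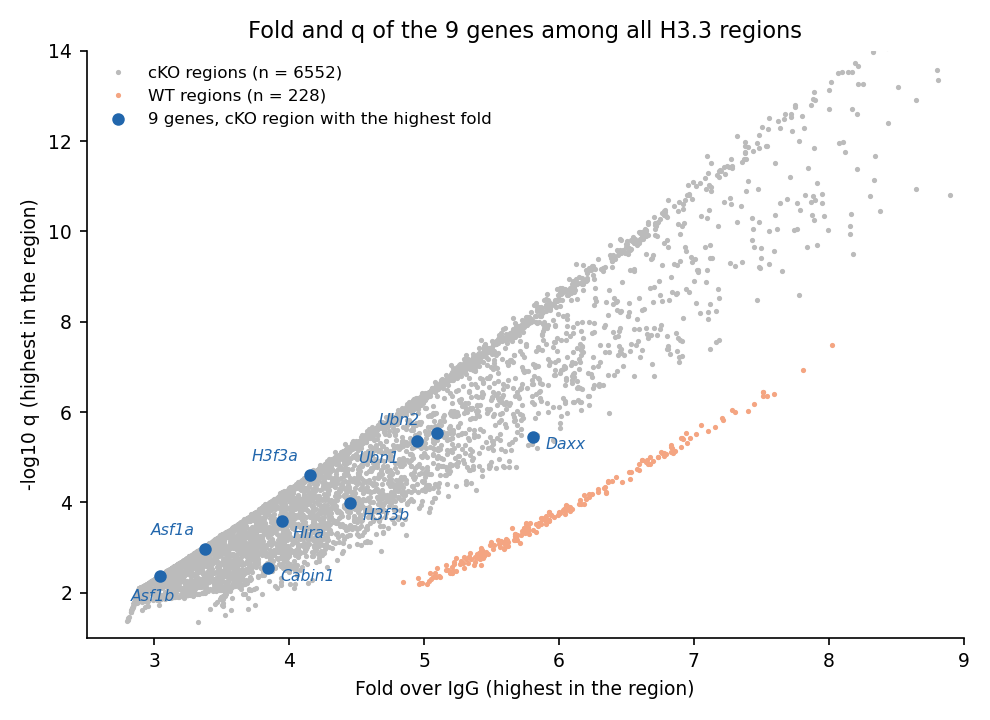
Fold over IgG (x axis) and -log10 q (y axis) of all merged H3.3 regions of the Arid1a cKO list (grey, n = 6552) and the Arid1a WT list (orange, n = 228), with the region of highest fold of the 9 genes in blue. The 9 genes lie inside the cloud of Arid1a cKO regions, and at a given fold the Arid1a WT regions have a lower -log10 q; 53 Arid1a cKO and 5 Arid1a WT regions lie beyond the axes.

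The count of members depended on the rule that a row or region had to meet. At a -log10 q of at least 3, 6 of the 9 genes kept a row at a start, against 20.8% of autosomal coding genes, and Cabin1, Asf1a and Asf1b fell below it. At a -log10 q of at least 5, Daxx, Ubn1 and Ubn2 were left, 3 of 9 against 9.56%. When only regions whose rows had at least 2 different spans were counted, 5 of the 9 genes had one at a start, against 15.2%. These were H3f3b, Ubn1, Ubn2, Asf1a and, through its intronic region, Cabin1, so that Daxx, the gene with the highest fold, was not among them. Rows of the same member region carried the same fold and -log10 q, whether or not their spans differed. The list does not say which replicate a row came from, so this rule measures neither strength nor replicate support. Counting regions of at least 2 rows whatever their spans, a rule added after the data had been seen, all 9 genes remained, against 27.1%. With the region's centre required to lie at most 1 kb before or 100 bp after a start, 8 of 9 were left, against 21.1%, and H3f3b dropped out.

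The other H3-H4 chaperone and assembly genes, a list of 18, gave a lower share. Of these, 9 had an Arid1a cKO row within 1 kb of a start and 0 had an Arid1a WT row. On autosomes the count was 8 of 16, beside the 29.5% of all autosomal coding genes. The highest folds of the list were those of Supt16, a subunit of the histone chaperone FACT, at 5.61 and of Rbbp4, a histone-binding subunit of CAF-1 and other complexes, at 5.60. The lowest were those of Chaf1b, the middle subunit of CAF-1, at 2.91 and of Rbbp7, an X-linked relative of Rbbp4, at 2.90. The genes without a row included Atrx, the X-linked partner of Daxx, and Chaf1a, the large subunit of CAF-1. The others without one were Hat1, Ipo4, Mcm2, Tonsl, Supt6, Hjurp and Dek. For the pair DAXX and ATRX, Daxx held the highest fold of the 9 and Atrx no row, while for the HIRA complex every gene held one. Atrx is X-linked, the shares given here are autosomal, and 9 of the 18 listed genes had no row. No contrast between the 2 pathways is therefore drawn from Atrx. The difference between the lists of 9 and 18 genes was not tested, because the 9 were chosen with earlier results of these data known.

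**Figure D3:**
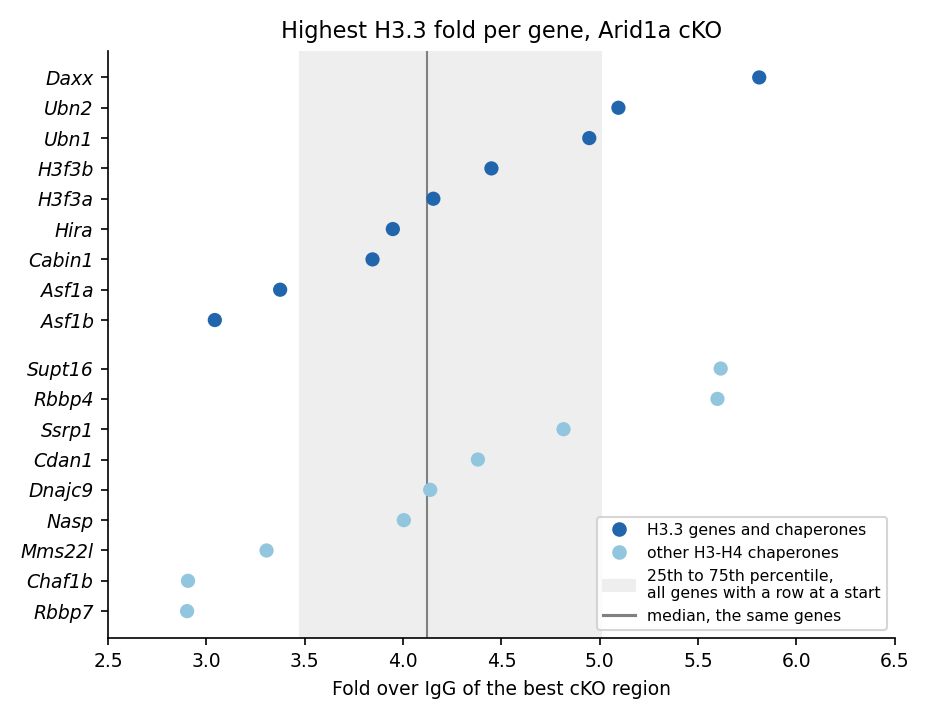
Fold over IgG of the best Arid1a cKO region of the 9 genes (dark blue) and of the 9 of 18 other H3-H4 chaperone genes with a row at a start (light blue); the grey band spans the quartiles (3.48 and 5.01) and the line marks the median (4.12) of all 6145 genes with a row at a start. Daxx and Ubn2 lie above the band, Asf1a and Asf1b below it. The Cdan1 point (4.38) is a region near a non-coding start, at -118891 bp from the nearest coding start, and the region at its coding start had a fold of 3.51.

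The 9 genes shared a CpG-rich promoter. This feature is not independent of their rows at a start, because genes with such rows more often had a CpG-rich promoter. In the 250 bases before the start of the lowest-numbered coding transcript, GC content ran from 54.0% in H3f3b to 74.0% in Asf1a, with a median of 68.4%, against a median of 55.2% over all autosomal coding genes. The ratio of observed to expected CpG ran from 0.909 in Asf1a to 1.20 in Asf1b, with a median of 1.03 against 0.524. All 9 passed a threshold of 0.6 for this ratio together with 50% GC, as did 40.7% of all genes and 74.2% of the genes with an Arid1a cKO row at a start. Among the 8440 genes with such a promoter 53.8% had an Arid1a cKO row at a start, and among the 12282 without one 12.8% did, with 8.65% and 4.01% under the stricter rules of a -log10 q of 3 or more and of 5 or more. Against genes of their own promoter class the members therefore stood at 9 of 9 beside 53.8%, at 6 of 9 beside 38.6% for a -log10 q of at least 3, and at 3 of 9 beside 17.6% for at least 5.

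**Figure D4:**
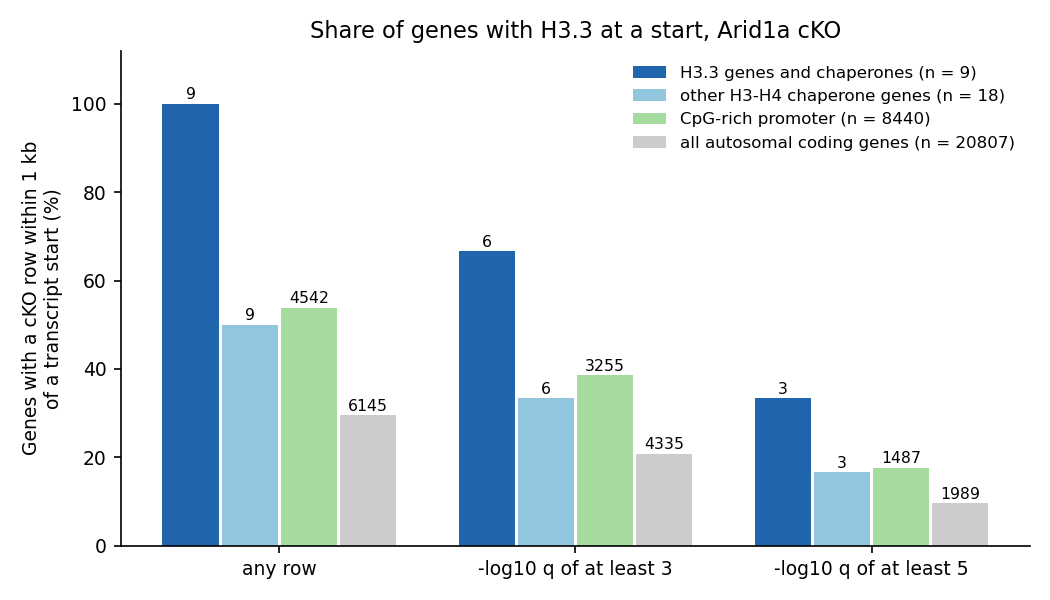
Percent of genes with an Arid1a cKO H3.3 row within 1 kb of a transcript start, for any row and for rows of a -log10 q of at least 3 and at least 5, with the number of genes above each bar. The bars of the 9 genes are the tallest under all 3 rules, followed by those of genes with a CpG-rich promoter, and no bar has a replicate error because each list combines its replicates.

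The members also had more annotated starts than most genes, and each start gives a further window in which a row can fall. They had between 3 and 13 distinct starts, with a median of 7, against a median of 3 over all genes. The share of genes with an Arid1a cKO row was 12.5% for genes with 1 start and 48.4% for genes with at least 6. The part of promoter class and of the number of starts in the count of 9 was not tested.

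**Figure D5:**
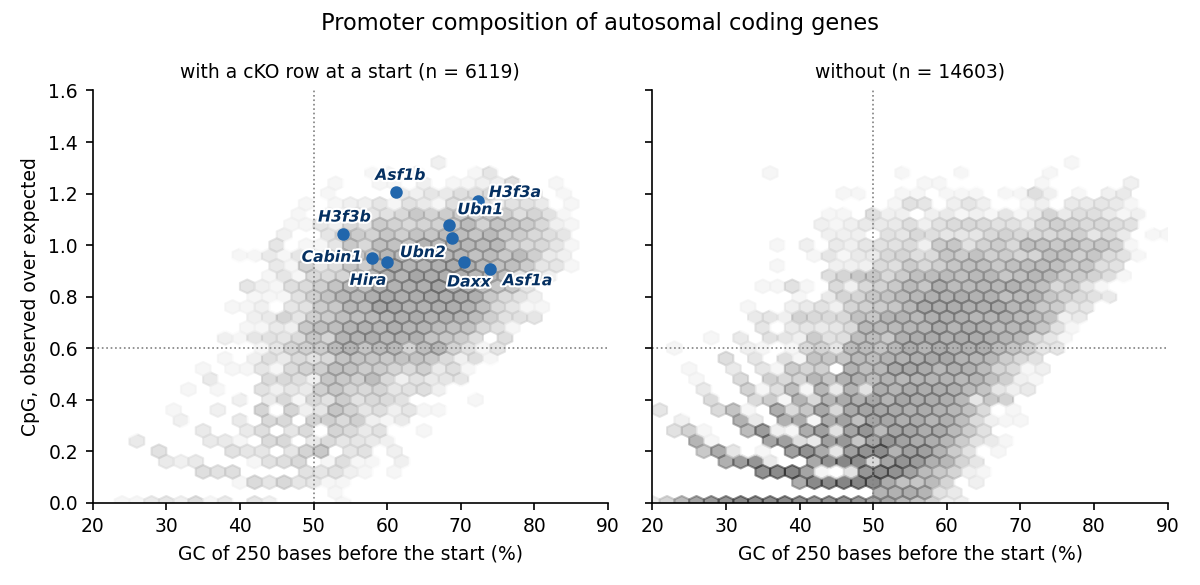
GC content (x axis, percent) and ratio of observed to expected CpG (y axis) of the 250 bases before the start, for autosomal coding genes with (left, n = 6119) and without (right, n = 14603) an Arid1a cKO row at a start. Darker hexagons hold more genes on a log scale, dotted lines mark 50% GC and a ratio of 0.6, and the 9 genes (blue) all lie above and to the right of both lines.

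Motifs were counted in the same windows. Each window precedes the lowest-numbered coding transcript and can lie downstream of another coding start. That of Ubn2 precedes Ubn2-201, which starts 223 bp downstream of Ubn2-205, the coding start nearest its region. Most of the Ubn2 window therefore lies inside the annotated gene. So does most of the Asf1a window, and the windows of H3f3a and H3f3b lie wholly inside their genes, because other coding transcripts start further upstream. Within the 250 bases, a CCAAT box was found in 8 of the 9 genes, all but Ubn2, in 34.5% of all 20722 promoters read and in 36.4% of those of genes with an Arid1a cKO row at a start. A GC box was found in 7, all but H3f3b and Ubn2, and in 41.8% of all promoters and 64.6% of those with a row. H3f3a had 6 GC boxes, 4 of them in the printed stretch, and H3f3b had none and 4 CCAAT boxes.

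The motifs that were rarer over the genome were each found in single members. A TATA box, present in 12.3% of all promoters and in 5.83% of those with a row, was found among the members in H3f3b only. The sequence of Ubn1 held a cyclic AMP response element, present in 2.01% of all promoters and 3.33% of those with a row, and 2 E-boxes, present in 6.54% and 9.02%. A YY1 site (AAGATGGCG) was found in Ubn1, against 0.729% of all promoters and 1.49% of those with a row, and an ETS site (CCGGAAG) in Daxx, against 8.76% and 16.7%. Both lay outside the printed stretches. The printed Ubn2 stretch, which ends at 249 bases before that transcript's start because an exon of another coding transcript lies between, held 1 cyclic AMP response element too. Motifs were searched on both strands as exact letters, no pair of different motifs shared bases in the printed stretches, and a match describes the letters only.

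Regions at 5 of the 9 genes also held the start of a different gene on the opposite strand, those of H3f3a, Hira, Ubn1, Daxx and Asf1a. Over all genes with a row at a start the share was 23.4%. For 3 of the 9 the other gene was protein-coding, Mrpl40 beside Hira, Glyr1 beside Ubn1 and Mcm9 beside Asf1a, where the share over all such genes was 17.8%. The distance between the opposed starts was 175 bp for Hira and Mrpl40, 194 bp for Ubn1 and Glyr1, and 95 bp for Asf1a and Mcm9. At Asf1b the start of Gm10644 lay 167 bp outside the region. H3.3 at the member and at its neighbour cannot be told apart where 1 region covers both starts, and for Hira, in GENCODE, the region covered only the start of the neighbour.

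The centres of the members' regions lay upstream of the nearest start of any transcript in 5 of 9 genes and downstream in 4. Over all genes with a row at a start, 38.1% had the centre upstream. The distance from that start ranged from -299 bp in Hira to 281 bp in H3f3b, with a median of -21.5 bp, against a median of 39.0 bp and quartiles of -58.5 and 142.5 bp over all such genes. The median of the members is the value of Asf1a, measured from a non-coding transcript. From the coding start of Asf1a the centre lay 281.5 bp downstream, so the count and the median depend on the starts used.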

How the data were processed

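The authors trimmed reads with Trim Galore, aligned them to mm10 with Bowtie2, removed duplicates with Picard, called broad peaks in MACS2 against rabbit IgG and intersected the peaks of replicates with bedtools. Each deposited list holds, per row, the authors' score (10 times the -log10 q, as a whole number), a fold (a ratio of H3.3 signal to IgG background), and a -log10 p and -log10 q. These deposited values were used to describe, rank and filter rows and were not changed. Per-sample columns without a sample numbered 0.

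Overlapping rows (at least 1 bp) were merged into regions that carry their highest fold. A gene counted when a row came within 1 kb of the start of any GENCODE M21 transcript. Shares over genes have no replicate error, and the Wilson interval (95%) of the background share covers counting error only. Promoters were read from GRCm38.p6 for 99.6% of autosomal coding genes, and printed stretches avoid exons of coding transcripts in GENCODE and curated RefSeq. The position search was tested on simulated peaks. All 9 members, the 18 other chaperones at the ends of their range or without a row, and neighbours with a start within 1 kb of a region were named. Members and lists were chosen with earlier results of these data known. Python 3.11.15, numpy 2.4.6, pandas 2.3.3, scipy 1.17.1 and matplotlib 3.10.9 were used.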

Additional observations from a re-analysis of the deposited data

How the results depend on the processing

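Counts of members in the Arid1a WT list stayed at 0 under all alternatives run. With a -log10 q of at least 3, the member regions numbered 6, the background share of genes with an Arid1a cKO row at a start was 20.8% and the median member fold 4.70. With at least 5, the members with a row at a start numbered 3, likewise 3 with rows in the gene counted, their regions 3, the other chaperones 3, the background 9.56% and the median fold 5.09. Keeping only regions whose rows had at least 2 different spans left 5 members at a start, 5 with rows in the gene counted, 5 regions, 4 other chaperones, a background of 15.2% and a median fold of 4.45. The 5 were H3f3b, Ubn1, Ubn2, Cabin1 and Asf1a. A window of 500 bp gave a background of 28.9%. Placing genes by the region centre left 8 members and 8 other chaperones and gave a background of 21.1% and a median fold of 4.05, regions of at least 2 rows (chosen after seeing the data) gave 27.1%, and genes of any biotype gave 14.3%. Counted as deposited, the members' rows numbered 21. A window of 2 kb, coding transcripts only and curated RefSeq transcripts left 9 members at a start each.

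No paired analysis was possible because replicates were combined into 1 list per genotype before deposit, and leaving out a replicate was impossible too. The different sizes and floors of the lists, the number of libraries behind them (2 and 3) and the genotype cannot be told apart, and the part of escaper cells and of the juvenile IgG background was not tested. Unknown depth leaves the level at which a gene without a row would be called unknown.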
